A study of Mus musculus with 8 samples.

Results

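The genes described here make cholesterol from acetyl units, sense its level, and move it within and out of the cell. They comprised 33 named genes, of which 30 were measured, out of the 18193 genes that the array reads on their own. Each gene was read at the probe set that is annotated to that gene alone and has the highest mean over the 8 arrays. Acat2, Nr1h2 and Soat1 had no such probe set in the annotation used and were not analysed here. The genes were named from their place in the pathway, with earlier results of these data known.

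RNA came from dorsal skin of mouse embryos of strain B6D2/F1 at embryonic day 18.5, shortly before birth, and was hybridised to single-colour Affymetrix arrays, on which several short probes together form a probe set. The wild-type group (GR+/+) held 4 arrays, with label numbers 4, 6, 28 and 29. The GR-null group (GR-/-), without the glucocorticoid receptor, held 4 arrays, with label numbers 5, 17, 25 and 26. Embryos of both genotypes were littermates delivered by cesarean, with no treatment named. The labels do not say which part of the receptor gene was disrupted, which litter an embryo came from, or whether any embryo was used for more than 1 array. The comparison asks which of the sterol genes differ in skin that develops without the receptor.

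Values are log2 expression values, so a difference of 1 is a doubling, and every difference below is GR-null minus wild-type with its standard error (SE) and 95% confidence interval. A gene is said to have risen or fallen where limma's adjusted p, taken over all genes, was below 0.05. Nr3c1, which encodes the receptor, fell by 0.84 ± 0.11 (SE, n = 4 per group) at its brightest probe set, from 10.24 to 10.32 in wild-type to 9.21 to 9.62 in GR-null arrays. Of its 5 other probe sets, the second and the third brightest differed by -1.86 ± 0.12 and -2.70 ± 0.21, and the 3 dimmest by 0.27, 0.04 and 0.35, none of these 3 past the test. Keratinocyte markers were high in every array, with list means of 11.61 to 11.98 in wild-type and 11.92 to 12.22 in GR-null arrays, and of 9 measured, 5 differed above 0 and 4 below. Trp63 (0.60 ± 0.12) and Col17a1 (0.59 ± 0.12) rose. Dsc3 (0.82 ± 0.21), Itgb4 (0.28), Krt15 (0.21), Krt5 (-0.14), Krt14 (-0.20), Krt10 (-0.05) and Krt1 (-0.15) did not pass the test. Trp63, Col17a1 and Dsc3 were higher, and Krt1 was lower, in every GR-null than in every wild-type array. Dermal fibroblast markers had means of 13.15 to 13.37 and 13.20 to 13.40. The 22 skeletal muscle markers had means of 11.45 to 11.54 in wild-type arrays, 11.47 in GR-null 17 and 10.39 to 10.67 in the remaining 3 arrays. Of these markers, 5 fell and 0 rose. In bulk tissue, fewer cells of a type and less RNA per cell cannot be told apart.

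Cholesterol synthesis begins with the mevalonate steps, which build the isoprenoid farnesyl diphosphate, and goes on through squalene and lanosterol to cholesterol. The SREBP transcription factors switch the synthesis genes on when sterols in the endoplasmic reticulum are scarce, whereas the liver X receptors (LXR), which bind oxysterols, switch on export genes when sterols are plentiful. In epidermis, cholesterol joins ceramides and fatty acids in the lipid layers of the water barrier, which forms late in gestation.

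Promoters of sterol enzymes are known for CCAAT boxes, which the factor NF-Y binds, and sterol response elements, which the SREBPs bind. RefSeq (GRCm38.p6) gave the 250 bases before a transcription start for 24 of the 30 measured genes, in 33 windows where some genes have several starts. The letters CCAAT, on either strand, stood in 15 of the 18 windows of synthesis enzymes (83.3%), in 7 of the 15 windows of the other measured genes (46.7%) and in 33.9% of all 32851 windows of this length. CCAAT stood at least 2 times in 10 enzyme windows (55.6%), against 10.1% of all windows. One sterol response element, TCACNCCAC on either strand, stood in 1 enzyme window (5.56%), against 1.05% of all windows. No match of one motif overlapped a match of the other. A match is a description of the letters and not evidence of binding.

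The windows below are shown for Msmo1, Nsdhl and Hsd17b7, whose GR-null values all lay above their wild-type values and which act in one enzyme complex, for Mylip, which rose, and for Hmgcs1, which held the single sterol response element and whose group means differed by 0.01. Capitals mark CCAAT or its reverse complement ATTGG and, in Hmgcs1, the sterol response element TCACCCCAC. Each runs 5′ to 3′ on the strand of its gene. Msmo1 (chr8:64733579-64733828, minus strand), Hsd17b7 (chr1:169969206-169969455, minus strand) and Mylip (chr13:45389492-45389741, plus strand) each held 3 CCAAT boxes. Nsdhl (chrX:72918271-72918520, plus strand) held 2. Hmgcs1 (chr13:119690101-119690350, plus strand) held 3 CCAAT boxes and 1 sterol response element.
Msmo1: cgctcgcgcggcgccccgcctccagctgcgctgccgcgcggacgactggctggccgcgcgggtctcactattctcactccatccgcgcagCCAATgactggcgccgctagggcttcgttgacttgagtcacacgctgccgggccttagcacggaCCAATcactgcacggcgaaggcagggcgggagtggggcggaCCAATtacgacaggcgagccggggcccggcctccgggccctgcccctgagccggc
Nsdhl: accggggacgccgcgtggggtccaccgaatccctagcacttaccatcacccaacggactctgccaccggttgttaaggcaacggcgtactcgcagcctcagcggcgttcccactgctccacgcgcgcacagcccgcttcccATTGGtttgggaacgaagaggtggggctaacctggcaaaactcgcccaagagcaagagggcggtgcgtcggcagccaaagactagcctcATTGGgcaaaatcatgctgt
Hsd17b7: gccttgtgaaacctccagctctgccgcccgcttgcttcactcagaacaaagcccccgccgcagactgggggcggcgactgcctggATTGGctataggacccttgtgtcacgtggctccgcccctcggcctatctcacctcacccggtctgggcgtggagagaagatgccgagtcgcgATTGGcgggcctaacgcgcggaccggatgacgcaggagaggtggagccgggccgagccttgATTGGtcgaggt
Mylip: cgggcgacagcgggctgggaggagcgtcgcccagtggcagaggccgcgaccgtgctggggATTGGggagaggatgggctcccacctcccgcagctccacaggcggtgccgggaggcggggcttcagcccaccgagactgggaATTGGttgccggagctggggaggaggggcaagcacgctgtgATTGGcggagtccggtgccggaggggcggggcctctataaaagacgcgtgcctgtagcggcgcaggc
Hmgcs1: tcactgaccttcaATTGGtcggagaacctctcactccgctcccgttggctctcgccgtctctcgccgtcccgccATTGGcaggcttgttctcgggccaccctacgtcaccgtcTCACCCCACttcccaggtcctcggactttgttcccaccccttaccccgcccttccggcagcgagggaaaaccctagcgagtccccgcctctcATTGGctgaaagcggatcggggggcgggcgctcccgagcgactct

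Of the 30 measured sterol genes, 4 rose in GR-null skin, 0 fell and 26 did not pass the test. Those that rose were the synthesis enzymes Fdps and Msmo1, the ubiquitin ligase Mylip and the endosomal cholesterol transporter Npc1. Over all genes tested, 2.96% passed the test in either direction and 1.40% rose. The groups did not overlap in 7 of the 30 genes, with the GR-null arrays higher in all 7 and lower in 0, where 6.69% of all genes were separated in the higher and 6.30% in the lower direction. At an unadjusted p below 0.05, 10 of the sterol genes were higher and 2 lower, against 10.5% and 11.1% of all genes. The median difference was 0.11 over the 30 genes, with 18 above 0, and -0.005 over all genes.

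**Figure D1:**
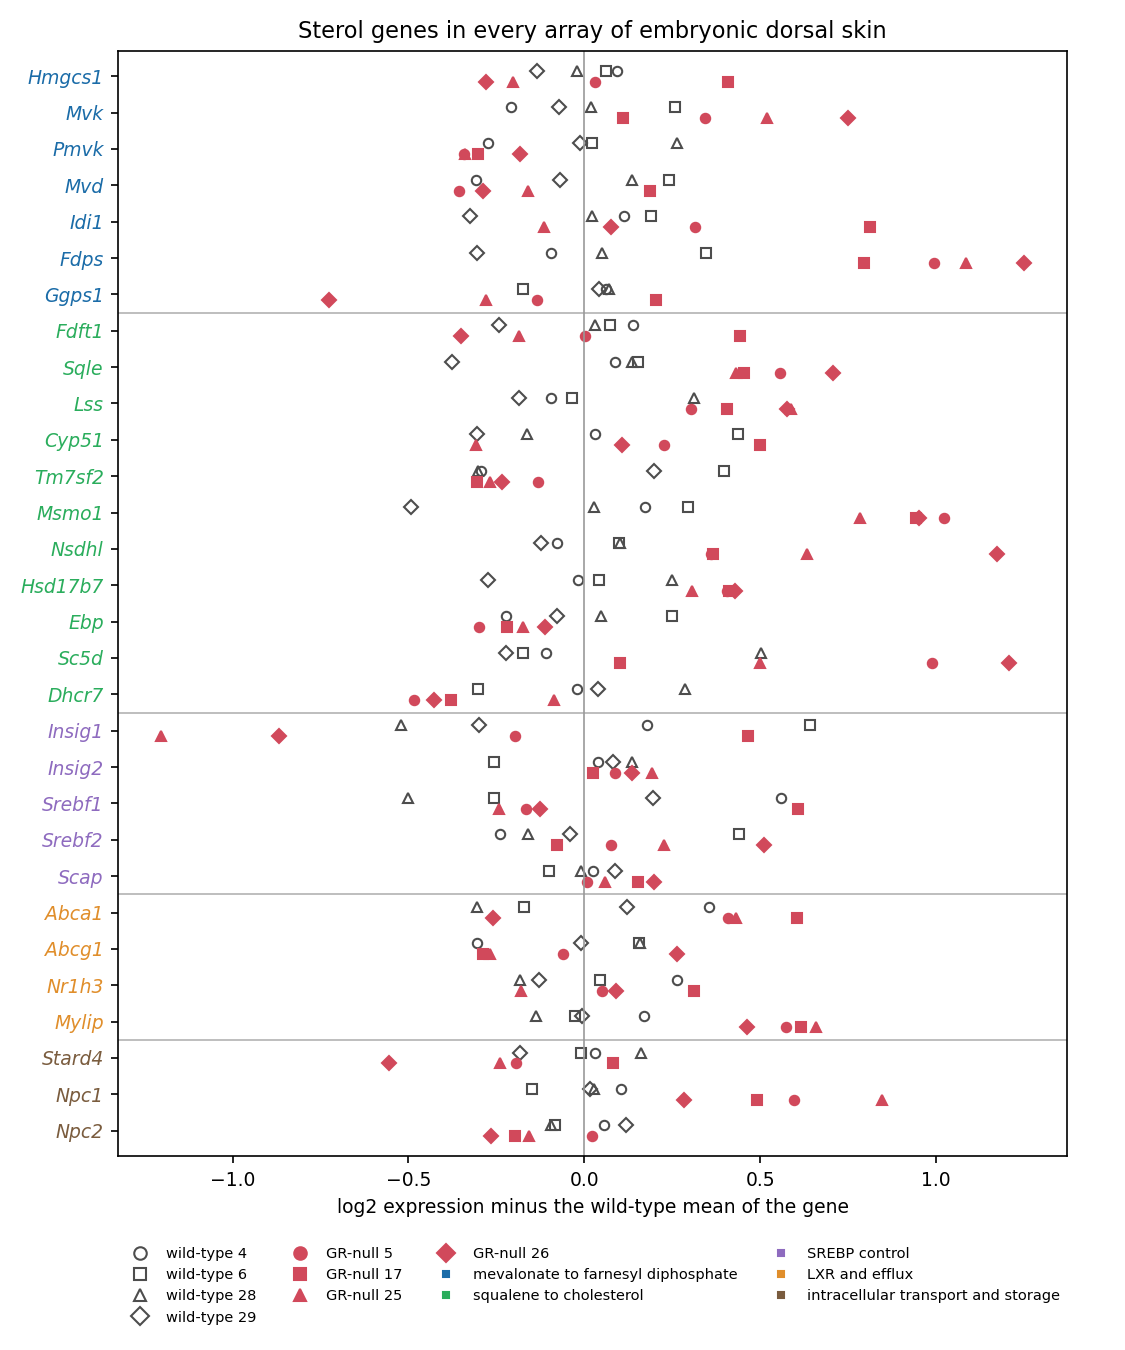
Each row is a sterol gene in pathway order and each point an array, plotted as its log2 expression minus the mean of the 4 wild-type arrays of that gene (open, wild-type; filled red, GR-null; symbols mark the arrays). Fdps, Sqle, Msmo1, Nsdhl, Hsd17b7, Mylip and Npc1 have all 4 GR-null points to the right of all wild-type points, and in Hmgcs1, Idi1, Fdft1 and Cyp51 the square of GR-null 17 stands highest.

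Of the mevalonate steps, 7 of 8 genes were measured, 1 rose, and the median difference was -0.01, from -0.29 to 1.03. The one that rose was Fdps, the synthase of farnesyl diphosphate, where the paths to cholesterol, prenylated proteins, dolichol and ubiquinone part. Fdps read 9.56, 10.00, 9.70 and 9.35 in the wild-type arrays, in the order of their label numbers 4, 6, 28 and 29 used throughout, and 10.65, 10.45, 10.74 and 10.90 in the GR-null arrays, in the order 5, 17, 25 and 26. The groups did not overlap, and the lowest GR-null array lay 0.45 above the highest wild-type one. The difference was 1.03 ± 0.15 (interval 0.70 to 1.37, 2.04-fold, adjusted p = 0.0147).

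No gene measured before Fdps in the pathway passed the test. Hmgcs1, which condenses acetoacetyl-CoA with acetyl-CoA at the entry of the pathway, read 12.05, 12.02, 11.94 and 11.82 in wild-type and 11.99, 12.37, 11.76 and 11.68 in GR-null arrays. Its groups overlapped fully, with the highest and the lowest of all arrays both GR-null, and the interval of the difference was -0.34 to 0.32. Mvk, the mevalonate kinase, read 7.84 to 8.31 in wild-type and 8.16 to 8.80 in GR-null arrays (0.43 ± 0.15, adjusted p = 0.141). Pmvk, the next kinase, read 8.39 to 8.93 and 8.32 to 8.48 (-0.29 ± 0.11, adjusted p = 0.175). The 2 successive kinases thus had differences of opposite sign, neither past the test. For Mvd, the decarboxylase that yields isopentenyl diphosphate, the difference was -0.15 ± 0.15. Idi1, the isomerase of isopentenyl diphosphate, had a difference of 0.27 ± 0.20, and its highest value, 10.45, was that of GR-null 17. Ggps1 extends farnesyl diphosphate to the geranylgeranyl form used on small GTPases, away from sterols. Its difference was -0.23 ± 0.17 at its brightest probe set, with its others given below.

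All 11 genes from squalene to cholesterol were measured, with a median difference of 0.39, from -0.34 to 0.93, and 7 above 0. Msmo1 alone among them rose. In 4 of the 11 the GR-null arrays all lay above the wild-type arrays, and at an unadjusted p below 0.05 there were 6 higher and 1 lower. The differences did not run one way along the steps: Fdft1, Cyp51, Tm7sf2, Ebp and Dhcr7 had differences of 0.13 or less, and the other 6 genes between and beside them had differences of 0.39 or more.

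Fdft1, the squalene synthase and first committed step to sterols, read 10.06 to 10.44 in wild-type and 9.96 to 10.75 in GR-null arrays (-0.02 ± 0.17). Sqle, the epoxidase that makes squalene 2,3-oxide and a known point of flux control, read 9.98, 10.05, 10.03 and 9.52 in wild-type and 10.45, 10.35, 10.33 and 10.60 in GR-null arrays. Every GR-null array was above every wild-type one, and wild-type 29 lay well below the other wild-type arrays. The difference of 0.54 ± 0.13 (interval 0.25 to 0.83) did not pass the test (adjusted p = 0.0607). Lss, which closes the rings to form lanosterol, had a difference of 0.47 ± 0.12 (adjusted p = 0.0704), with wild-type 28 at 8.46 just above GR-null 5 at 8.45. Cyp51, the lanosterol demethylase, overlapped fully (0.13 ± 0.20), as did Tm7sf2, a sterol reductase (-0.23 ± 0.16).

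Msmo1, Nsdhl and Hsd17b7 encode the oxidase, the dehydrogenase and the ketoreductase that together strip the methyl groups from carbon 4 of the sterol ring. They are set apart as a complex here after their values were seen. Msmo1 read 9.03, 9.15, 8.89 and 8.37 in wild-type and 9.88, 9.80, 9.64 and 9.81 in GR-null arrays. The GR-null arrays lay close together, while wild-type 29 was lowest. Msmo1 rose by 0.93 ± 0.16 (interval 0.57 to 1.28, 1.90-fold, adjusted p = 0.0234). Nsdhl, an X-linked gene, read 8.93, 9.11, 9.11 and 8.89 in wild-type and 9.37, 9.38, 9.65 and 10.19 in GR-null arrays, without overlap (0.63 ± 0.17, interval 0.24 to 1.02, adjusted p = 0.0805). Xist, the RNA of the inactive X chromosome, was high in wild-type 6 and GR-null 17 only, and Nsdhl did not stand apart from its group in either. Hsd17b7 read 8.84, 8.90, 9.11 and 8.59 in wild-type and 9.27, 9.27, 9.17 and 9.29 in GR-null arrays (0.39 ± 0.11, interval 0.14 to 0.63, adjusted p = 0.0847). All 3 genes of the complex were separated by genotype at the probe set read, which was known when they were set apart, and 1 passed the test. Their promoter windows, printed above, hold 2 or 3 CCAAT boxes each. At least 2 stood in 10 of the 18 enzyme windows. The rest of these windows belong to Hmgcs1, Mvk, Mvd, Idi1, Ggps1, Ebp and Dhcr7, whose groups overlapped at the probe set read.

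The last steps differed in sign among themselves. Ebp, the X-linked sterol isomerase, read 9.00 to 9.47 in wild-type and 8.92 to 9.11 in GR-null arrays (-0.20 ± 0.11, adjusted p = 0.318). Sc5d, the desaturase that follows, read 8.46, 8.39, 9.07 and 8.35 in wild-type and 9.56, 8.67, 9.07 and 9.77 in GR-null arrays (0.70 ± 0.25, interval 0.13 to 1.27, adjusted p = 0.152). Wild-type 28 reached the GR-null range, and GR-null 17 was the lowest of its group. Dhcr7, which reduces 7-dehydrocholesterol to cholesterol, read 10.15, 9.86, 10.45 and 10.20 in wild-type and 9.68, 9.79, 10.08 and 9.74 in GR-null arrays. Its difference of -0.34 ± 0.14 (interval -0.65 to -0.04) was the lowest of the synthesis enzymes and did not pass the test (adjusted p = 0.186).

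**Figure D2:**
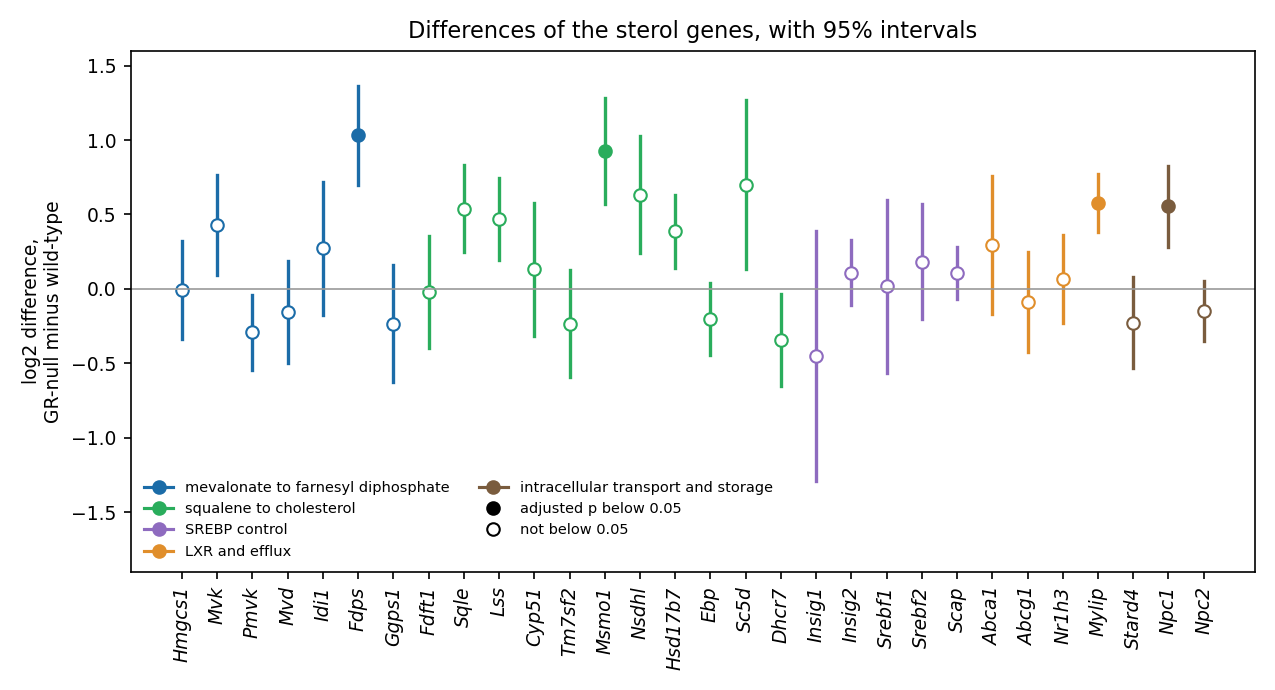
Points are GR-null minus wild-type log2 differences (n = 4 per group) in pathway order with 95% confidence intervals, filled where the adjusted p was below 0.05. Fdps (1.03), Msmo1 (0.93), Mylip (0.58) and Npc1 (0.55) are filled, and the widest interval is that of Insig1, from -1.29 to 0.39.

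The genes that control the pathway did not pass the test in any case. Of the 5, 0 rose or fell, 0 had an unadjusted p below 0.05, and the median difference was 0.10. Srebf2, the SREBP most tied to cholesterol synthesis, differed by 0.18 ± 0.17 (interval -0.20 to 0.57), and Scap, the sterol sensor that escorts it, by 0.10 ± 0.08. Insig2, one of the proteins that hold Scap in the endoplasmic reticulum, differed by 0.11 ± 0.10. Insig1, its partner and itself an SREBP target, read 7.88, 8.34, 7.18 and 7.40 in wild-type and 7.50, 8.17, 6.50 and 6.83 in GR-null arrays. Its spread within each group was larger than its difference (-0.45 ± 0.37), with wild-type 6 and GR-null 17 highest in their groups. Srebf1, which has a larger part in fatty acid synthesis, read 10.50, 9.69, 9.44 and 10.14 in wild-type and 9.78, 10.55, 9.70 and 9.82 in GR-null arrays (0.02 ± 0.26, interval -0.56 to 0.60). The 3 arrays highest in Srebf1, namely wild-type 4, wild-type 29 and GR-null 17, were also the 3 with the highest mean of the adipocyte markers (8.44, 7.69 and 7.81, against 6.58 to 7.06 in the other 5). The part of fat tissue in the Srebf1 values was not tested.

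Of the LXR and efflux genes, 4 of 5 were measured, 1 rose, and the median difference was 0.18. Mylip, also known as Idol, is an LXR target that marks lipoprotein receptors for degradation and so limits cholesterol uptake. Mylip read 10.08, 9.89, 9.77 and 9.91 in wild-type and 10.48, 10.53, 10.57 and 10.38 in GR-null arrays. The groups did not overlap, and the GR-null arrays lay within 0.20 of each other. Mylip rose by 0.58 ± 0.09 (interval 0.38 to 0.77, 1.49-fold, adjusted p = 0.0161). Abca1, the pump that loads cholesterol onto lipid-poor apolipoprotein, read 10.92, 10.39, 10.26 and 10.69 in wild-type and 10.97, 11.17, 11.00 and 10.31 in GR-null arrays at its brightest probe set. In 3 GR-null arrays it stood above every wild-type array, while GR-null 26 was near the wild-type minimum (0.30 ± 0.21, adjusted p = 0.460). Abcg1, the pump that loads mature lipoproteins, differed by -0.09 ± 0.15 and Nr1h3, which encodes LXR alpha, by 0.07 ± 0.13. Other genes known as LXR targets or partners gave 0 rises and 0 falls among 9 measured, 0 at an unadjusted p below 0.05, and a median of -0.08. Those with the smallest p were Mlxipl (-0.41 ± 0.22, adjusted p = 0.317) and Abhd2 (-0.26 ± 0.14, adjusted p = 0.336).

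Of the genes for movement and storage inside the cell, 3 of 4 were measured. Npc1, the membrane protein that releases cholesterol from late endosomes, read 7.68, 7.43, 7.61 and 7.60 in wild-type and 8.18, 8.07, 8.43 and 7.86 in GR-null arrays. The groups did not overlap, although GR-null 26 lay within 0.18 of wild-type 4. Npc1 rose by 0.55 ± 0.12 (interval 0.28 to 0.83, 1.47-fold, adjusted p = 0.0469). Npc1 and Nr3c1 both lie on chromosome 18, as does Stard4. Npc2, the soluble protein that hands cholesterol to Npc1, differed by -0.15 ± 0.09 (adjusted p = 0.379), opposite in sign to its partner. Stard4, a cytosolic sterol carrier, differed by -0.23 ± 0.13 (adjusted p = 0.380).

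The 4 rises depended on single arrays to different degrees. Without GR-null 25, 0 of the 30 genes passed the test (Fdps then had adjusted p = 0.0558), and without GR-null 17, 8 did, adding Mvk, Sqle, Nsdhl and Sc5d. The count over all 18193 genes moved the same way, from 539 with all arrays to 79 without GR-null 25 and 1640 without GR-null 17. Over all settings tried, the adjusted p of Fdps ranged from 0.00370 to 0.217, that of Msmo1 from 0.00988 to 0.256, that of Mylip from 0.00681 to 0.127 and that of Npc1 from 0.0183 to 0.351. Their differences without any 1 array stayed at 0.93 to 1.15 for Fdps, 0.76 to 1.02 for Msmo1, 0.53 to 0.63 for Mylip and 0.46 to 0.65 for Npc1. Npc1 lost its call in 6 of the 8 fits with 1 array left out, Msmo1 in 4, Mylip in 2 and Fdps in 1.

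The highest adjusted p came with the mean of the skeletal muscle markers as a covariate, under which 0 of the 30 genes passed the test. Over all 18193 genes, 120 passed with this covariate, against 539 without it. The differences were then 0.79 for Fdps (adjusted p = 0.217), 0.87 for Msmo1 (0.256), 0.63 for Mylip (0.127) and 0.53 for Npc1 (0.351). In GR-null 17, whose muscle mean of 11.47 lay within the wild-type range, Fdps read 10.45, Msmo1 9.80, Mylip 10.53 and Npc1 8.07, each above every wild-type array. Since the groups did not overlap in any of these genes, that order was fixed beforehand. The part of muscle in the rises was not tested. With muscle means of 10.39 to 10.67, the other GR-null arrays read 10.65 to 10.90 in Fdps, 9.64 to 9.88 in Msmo1, 10.38 to 10.57 in Mylip and 7.86 to 8.43 in Npc1.

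**Figure D3:**
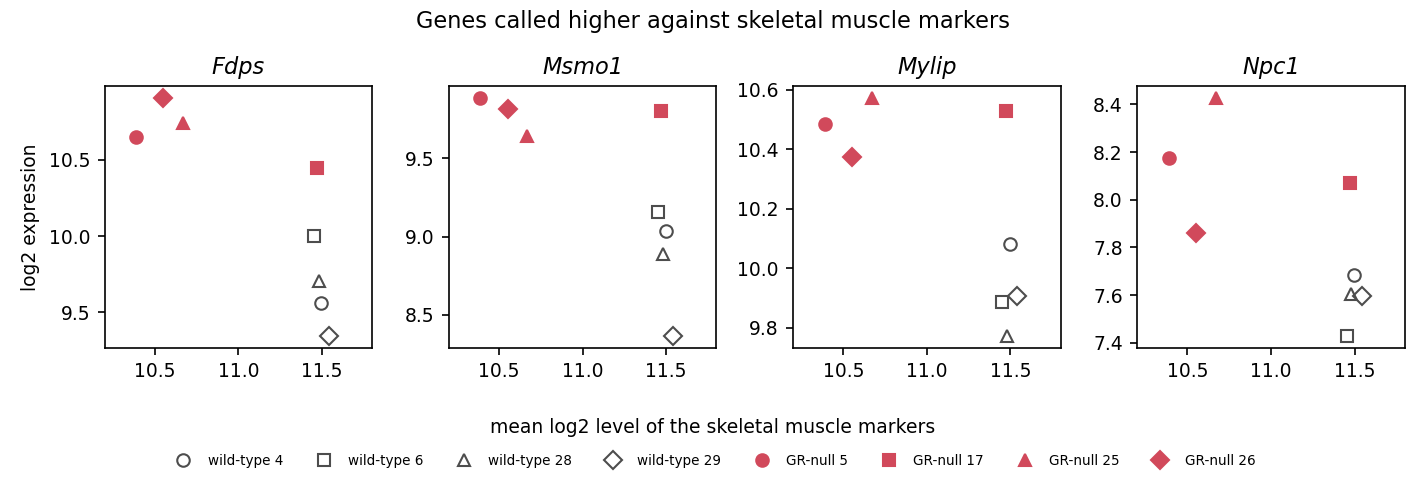
Each panel plots the log2 expression of one gene that rose against the mean log2 level of the 22 skeletal muscle markers, one point per array (open, wild-type; filled red, GR-null). GR-null 17, the red square, has a muscle mean of 11.47 beside the wild-type arrays at 11.45 to 11.54. It lies above all of them in each panel, as every GR-null array does, because the groups did not overlap in these genes.

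Averaged over each group of genes, the arrays separated by genotype in some groups and not in others. The squalene-to-cholesterol genes had means of 9.12, 9.27, 9.27 and 8.97 in wild-type and 9.43, 9.41, 9.36 and 9.53 in GR-null arrays, without overlap. The LXR and efflux genes also did not overlap, at 8.67, 8.55, 8.43 and 8.54 in wild-type and 8.79, 8.86, 8.71 and 8.69 in GR-null arrays. The squalene-to-cholesterol mean was 0.27 higher in GR-null arrays, and that of all 18 synthesis enzymes 0.22. The LXR and efflux mean was 0.21 higher, with differences of 0.58 for Mylip, which acts on uptake, and of 0.30 for Abca1 and -0.09 for Abcg1, the pumps. The keratinocyte list mean was 0.22 higher in GR-null arrays, with overlap, and its part in these values was not tested. The mevalonate genes, with a mean difference of 0.15, ran from 9.07 to 9.33 in wild-type and from 9.27 to 9.51 in GR-null arrays, and the SREBP control genes from 9.00 to 9.32 and from 9.01 to 9.44. Both of these overlapped, as did the genes for movement and storage inside the cell, at 10.16 to 10.30 in wild-type and 10.06 to 10.39 in GR-null arrays. GR-null 17 had the highest mean of all arrays in the mevalonate, SREBP control and LXR and efflux genes.

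**Figure D4:**
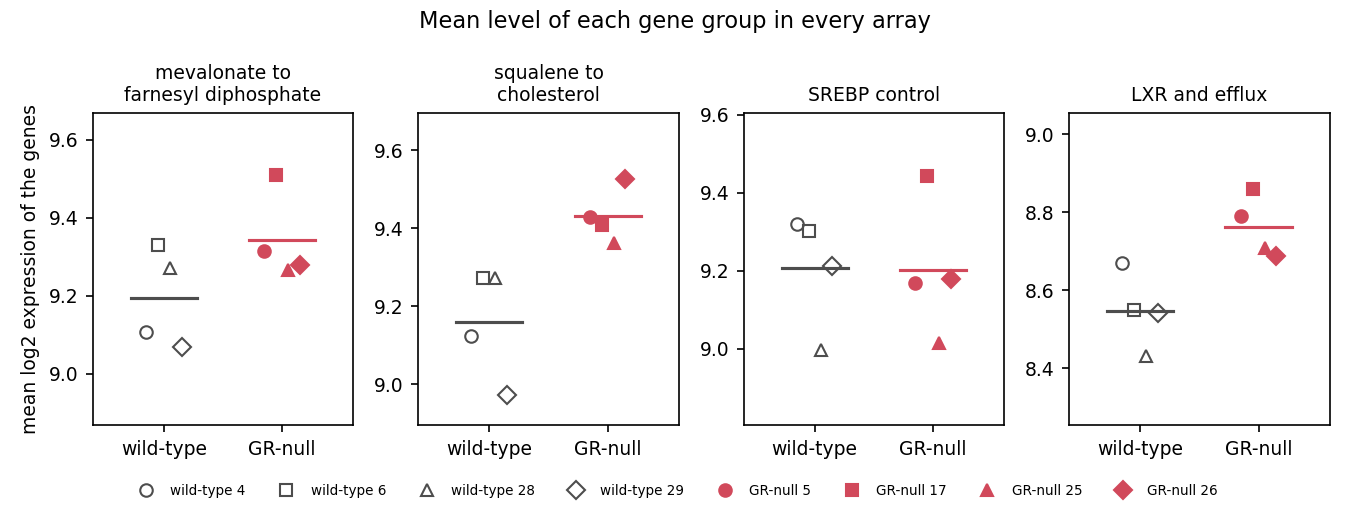
Each panel shows the mean log2 expression of the measured genes of one group in every array, with a line at the mean of the 4 arrays of a genotype. The genotypes are separate for the squalene-to-cholesterol genes (up to 9.27 in wild-type, from 9.36 in GR-null) and for the LXR and efflux genes (up to 8.67, from 8.69), and overlap in the other panels. Of the LXR and efflux genes, only Mylip was itself separated at the probe set read.

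At the probe sets read for each gene, GR-null 17 was the highest of all 8 arrays for 8 of the 30 genes, namely Hmgcs1, Idi1, Ggps1, Fdft1, Cyp51, Srebf1, Abca1 and Nr1h3, and for 15.04% of all genes. Among the GR-null arrays alone it was the highest for 11 of the 30 genes and for 33.5% of all genes, so its share there was near that of all genes. GR-null 17 read 12.37 for Hmgcs1, 10.45 for Idi1, 10.75 for Fdft1 and 9.19 for Cyp51, and the other GR-null arrays reached at most 11.99, 9.95, 10.31 and 8.92. The highest wild-type arrays read 12.05, 9.83, 10.44 and 9.12 for these 4 genes, and for Srebf1 and Nr1h3 wild-type 4 (10.50 and 6.72) came close to GR-null 17 (10.55 and 6.77). GR-null 26 was the highest for 9 of the 30 genes and for 18.6% of all genes, and these included Fdps, Sqle, Nsdhl and Sc5d. At the other end, wild-type 29 was the lowest array for 8 of the 30 genes, against 7.50% of all genes.

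The probe set read for a gene mattered for several of the sterol genes. The 30 genes had 66 probe sets, with 1 for 11 genes and more for 19. Over single probe sets, 6 of the 66 rose and 0 fell, where 2.22% of all 45037 probe sets rose. The arrays were separated in the higher direction at 15 of the 66, against 6.80% of all probe sets, and in the lower direction at 1. These 15 belonged to 12 genes, of which Hmgcs1, Ggps1, Fdft1, Stard4 and Abca1 were separated only at a probe set other than their brightest. In 12 of the 19 genes with several probe sets, the differences lay on both sides of 0, and in 8 they were more than 0.5 apart.

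The other probe sets of Abca1 rose. The second brightest read 7.28, 7.12, 6.24 and 6.31 in wild-type and 8.19, 7.98, 8.68 and 8.07 in GR-null arrays, without overlap (1.496 ± 0.260, interval 0.91 to 2.08, adjusted p = 0.0245 over all probe sets). The dimmest read 6.23, 5.67, 4.58 and 4.69 in wild-type and 7.05, 6.72, 7.60 and 7.05 in GR-null arrays (1.81 ± 0.36, interval 1.001 to 2.63, adjusted p = 0.0341). At both, wild-type 28 and 29 were the lowest arrays and GR-null 25 the highest. With the mean of its 3 probe sets, Abca1 differed by 1.20 (adjusted p = 0.0271, against 0.0271 to 0.701 over all settings).

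Hmgcs1 differed by 0.84 ± 0.21 at its probe set ranked 4 by brightness (adjusted p = 0.0606), at 8.50 to 9.66 in wild-type and 9.71 to 10.02 in GR-null arrays, against intervals that held 0 at its 4 others. Fdft1 differed by 0.46 ± 0.11 at its second brightest (adjusted p = 0.0521), Ggps1 by 0.62 ± 0.15 at its dimmest (0.0585) and Stard4 by 0.67 ± 0.21 at its second (0.0979). At the brightest probe sets Hmgcs1, Fdft1, Ggps1 and Stard4 had differences between -0.01 and -0.23. Hsd17b7 stood above 0 at all 4 probe sets, with 0.83 ± 0.25 and 0.85 ± 0.20 at the second and the third. Its groups overlapped at the second and at the dimmest. Mvk differed by 0.62 ± 0.16 at its second probe set, with overlap (adjusted p = 0.0614). For Fdps and Msmo1, the only other probe set was dim, with means of 3.84 and 4.83, and its differences were -0.09 and -0.11. Averaged over its probe sets, Msmo1 had a difference of 0.41 (adjusted p = 0.232), while Fdps, at 0.47, still passed the test (0.0175). Which transcript ends these probe sets read was not examined.

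**Figure D5:**
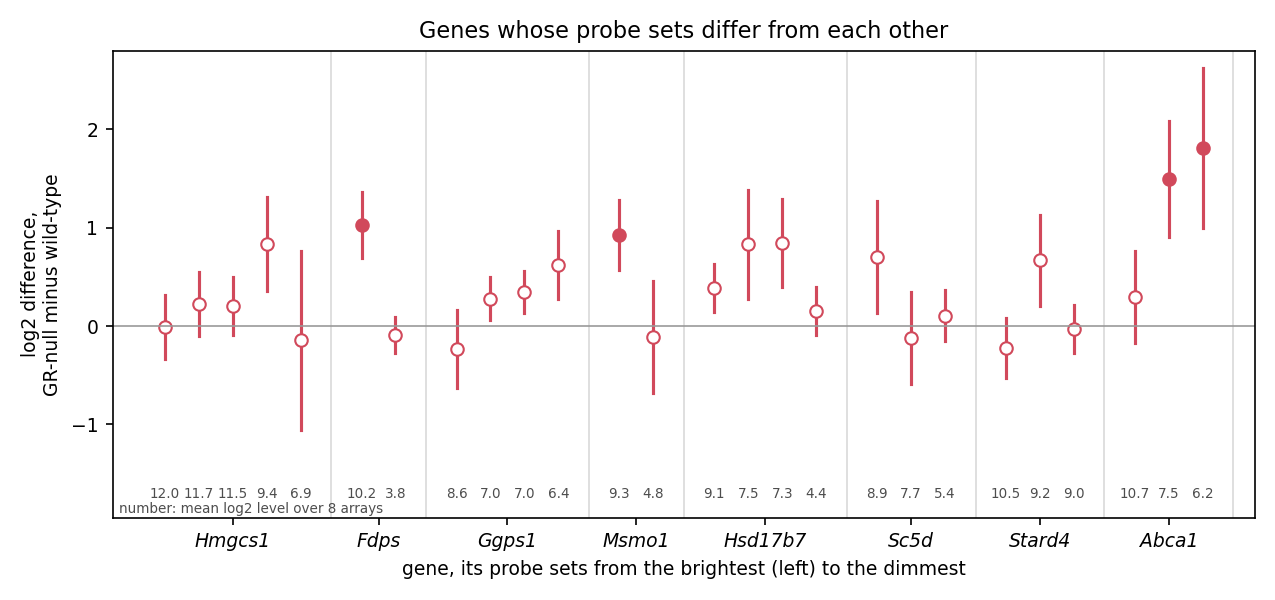
For each gene whose probe sets differed by more than 0.5, points are the GR-null minus wild-type log2 differences with 95% intervals, from the brightest probe set (left) to the dimmest, and the small numbers are mean log2 levels over the 8 arrays; filled points passed the test over all probe sets. In Abca1 the difference is 0.30 at the brightest probe set and 1.496 and 1.81 at the others.

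In 6 lists of neighbouring pathways, 1 of 85 measured genes passed the test, a rise, where 2.96% of all genes passed in either direction and 1.40% rose. Of 16 fatty acid synthesis genes, which answer mainly to Srebf1, 0 passed the test, the median difference was -0.11, and 2 were higher and 3 lower at an unadjusted p below 0.05. The smallest p values were those of the elongase Elovl6 (0.31 ± 0.09, adjusted p = 0.0977) and of Aacs, which activates acetoacetate for lipid synthesis (0.22 ± 0.08, adjusted p = 0.149). Of 13 measured genes that use isoprenoids downstream of Fdps, 0 passed, with a median of -0.07. Rabggtb, a subunit of the transferase that prenylates Rab proteins, had a difference of 0.41 ± 0.11 (adjusted p = 0.0859) and Pdss2, of ubiquinone side chain synthesis, -0.44 ± 0.14 (adjusted p = 0.124). Of 12 measured genes that process SREBPs or degrade sterol-regulated proteins, 0 passed, with a median of 0.05, led by the protease Mbtps1 (0.32 ± 0.10, adjusted p = 0.109) and by Erlin1 (0.44 ± 0.14, adjusted p = 0.119).

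Of 25 further sterol transport genes, 1 rose, and the median difference was -0.02. Abca5, a transporter of late endosomes and lysosomes, read 8.24, 8.13, 8.05 and 8.15 in wild-type and 8.96, 8.39, 8.91 and 8.87 in GR-null arrays (0.64 ± 0.13, adjusted p = 0.0370). Its groups did not overlap, and GR-null 17 was the lowest of its group. Over the 6 neighbouring lists together, leaving out GR-null 17 gave 11 calls among 85 genes, and leaving out any other array gave 0. Over all 18193 genes, the same fits gave 1640 calls without GR-null 17 and 79 to 321 without any other array. Of 10 measured genes for oxysterols and steroids made from cholesterol, 0 passed, with a median of -0.10. Cyp46a1, which makes a brain oxysterol, differed by -0.38 ± 0.10 (adjusted p = 0.0725) and Cyp11a1, which opens steroid hormone synthesis, by 0.59 ± 0.23 (adjusted p = 0.188).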

How the data were processed

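The deposited values are in log2 units, 1 per probe set and array. The submitters' processing notes name RMA, with its version not stated in these sources. RMA equalises intensity distributions between arrays (medians 6.46 to 6.52) and compresses differences of dim probe sets. Of 45101 probe sets, 64 controls were left out and 45037 were fitted with limma 3.58.1 in R 4.3.3 (lmFit and eBayes, genotype as single term, two-sided). By the platform annotation 34945 carried 1 gene symbol, 932 several and 9160 none listed. Adjusted p-values are Benjamini-Hochberg over the 18193 genes, or over all probe sets where said. Of these genes 18032 matched the RefSeq table. The fit was tested on simulated data.

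Since the labels do not state separate embryos, p-values measure the spread between these samples, and the number of arrays limits precision.

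The sterol genes and the other lists were chosen with earlier results of these data known. All measured sterol genes are described. In each other list up to 4 genes past the threshold, or else the 2 with the smallest p, are named. Promoter windows are RefSeq sequences, cut to the 250 bases before each start. Windows on chromosome 18 were left out, and 6 measured genes had none, namely Fdps, Fdft1, Sqle, Abcg1, Stard4 and Npc1.

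The alternatives were quantile normalization once more, only probe sets above the median level, a trended robust prior, array weights, each array left out, muscle and Xist covariates, the mean of probe sets, dropping probe sets with names ending in _x_at or _s_at, adjusted p below 0.01 and a minimum of 1.5-fold.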

Additional observations from a re-analysis of the deposited data

Results flagged for a closer look

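In 4 of 60 groups of 4 arrays, 1 array lay far from the other 3 for its gene, where chance alone gives about 5%. Sqle read 9.52 in wild-type 29, with the nearest wild-type array at 9.98. Srebf1 read 10.55 in GR-null 17, with the nearest GR-null array at 9.82. Sc5d read 9.07 in wild-type 28, with the nearest at 8.46, and Ggps1 read 8.58 in wild-type 6, with the nearest at 8.80.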

How the results depend on the processing

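No paired analysis was possible because the genotypes share no label number. Among 18 alternatives, 539 values of single sterol genes were compared with those reported: 474 kept direction and side of the threshold, 26 calls ended, 10 were gained, 29 values below the threshold changed sign (in 12 genes never called) and 0 calls reversed. Leaving out 1 array gave 0 to 8 sterol genes, 79 to 1640 of all genes (539 with all arrays) and 0 to 11 genes of the neighbouring lists (1 with all arrays). The fewest calls came without GR-null 25 and the most without GR-null 17. With array weights these counts were 8, 1944 and 8. With the muscle covariate they were 0, 120 (47 shared with the 539) and 0. With the mean of probe sets all genes gave 884 and the neighbouring lists 4. Below an adjusted p of 0.01 the counts were 0, 46 and 0. A minimum of 1.5-fold left 2 sterol genes, Fdps and Msmo1, and 297 of all genes. With the intensity trend and robust prior, or with Xist as covariate, 3 sterol genes passed, without Npc1. Median differences moved beyond the spread as follows. For the mevalonate genes the muscle covariate gave 0.19, the mean of probe sets 0.22 and leaving out 1 array -0.15 to 0.080. For the squalene-to-cholesterol genes the mean of probe sets gave 0.23. For the LXR and efflux genes the filter on dim probe sets gave 0.30, the muscle covariate 0.44, the mean of probe sets 0.32 and leaving out 1 array 0.091 to 0.29. For the transport genes the muscle covariate gave 0.049 and the mean of probe sets 0.14, against -0.15. The causes were not tested. Signal near background limits the dim probe sets.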
